A study of Homo sapiens with 12 samples.

Results

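The 28 genes described here encode the enzymes that make cholesterol and the proteins that sense, import, move, store and export it. They were taken by name, and their levels were read from every array probe set (a group of short probes for 1 transcript) that the platform annotation assigned to that symbol alone. Of the 28 genes, 26 had such a probe set, 64 probe sets of 54675 in all, and 25 passed a filter on low signal and were tested among 12635 genes. FDFT1, which encodes squalene synthase, was not analysed here. CYP51A1, the lanosterol demethylase, had only probe sets that the annotation shares with other symbols, so no value was assigned to it. ABCA1, a cholesterol exporter, did not pass the filter. The 18 synthesis genes, of which 16 were tested, were set beside the 10 transport and sensing genes, of which 9 were tested.

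The cells were 22Rv1, an established human prostate carcinoma line grown in serum-containing medium. They received a small-molecule inhibitor, described in the series title as acting on ONECUT2, a homeodomain transcription factor, for 4 h, 6 h or 16 h, or vehicle, with 3 Affymetrix U133 Plus 2.0 arrays in each of the 4 groups. The labels give no dose, no vehicle time and no genetic change in any group, and a code element present in every other title is missing from those at 16 h, so compound, culture time and that element cannot be told apart at 16 h. Whether the replicates came from separate cultures is not stated. The p-values therefore cover the array-to-array spread alone, which may be technical, and the number of arrays limits the precision.

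Cells make cholesterol from acetyl-CoA through mevalonate, isoprenoid units, squalene and a chain of sterol intermediates. The transcription factor SREBP2, encoded by SREBF2, is held in the endoplasmic reticulum with its escort SCAP when sterols are plentiful, because INSIG proteins retain SCAP there. When membrane sterol falls, SCAP carries SREBP2 to the Golgi, where it is cut free to switch on synthesis genes and also SREBF2 and INSIG1 themselves. Oxysterols instead activate LXR receptors, which switch on the exporters ABCA1 and ABCG1 and MYLIP, a ubiquitin ligase that removes lipoprotein receptors from the cell surface. Prostate carcinoma cells use cholesterol for membranes and, in some settings, for steroid synthesis.

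Promoter windows of 4 genes are printed because SREBF2 had the largest fall among the 25 genes and INSIG1, MSMO1 and HMGCS1 had the lowest adjusted p at 4 h. They are the 250 bases before the RefSeq start in GRCh38.p14, read 5′ to 3′ on the gene's strand. Capitals mark the sterol regulatory element letters TCACNCCAC and the CCAAT box, each searched on both strands, so that ATTGG is a CCAAT box on the opposite strand. The SREBF2 window lies at chr22:41832855-41833104 on the plus strand, the INSIG1 window at chr7:155297628-155297877 on the plus strand, 1 HMGCS1 window at chr5:43313413-43313662 on the minus strand and the MSMO1 window at chr4:165327419-165327668 on the plus strand.
SREBF2: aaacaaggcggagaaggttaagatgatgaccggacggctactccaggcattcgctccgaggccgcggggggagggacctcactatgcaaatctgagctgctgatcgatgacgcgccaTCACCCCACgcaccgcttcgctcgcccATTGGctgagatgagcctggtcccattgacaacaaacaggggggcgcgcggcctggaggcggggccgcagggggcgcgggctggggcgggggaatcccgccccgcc
INSIG1: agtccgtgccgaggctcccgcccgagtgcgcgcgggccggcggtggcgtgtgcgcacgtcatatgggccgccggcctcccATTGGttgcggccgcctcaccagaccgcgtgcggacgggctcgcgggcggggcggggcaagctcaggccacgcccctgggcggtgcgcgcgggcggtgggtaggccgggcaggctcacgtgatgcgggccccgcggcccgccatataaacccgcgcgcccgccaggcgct
HMGCS1: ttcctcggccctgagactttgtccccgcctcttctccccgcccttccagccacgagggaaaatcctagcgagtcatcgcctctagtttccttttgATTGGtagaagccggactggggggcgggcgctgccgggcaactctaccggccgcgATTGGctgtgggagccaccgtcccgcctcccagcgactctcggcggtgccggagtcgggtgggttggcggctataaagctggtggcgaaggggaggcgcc
MSMO1: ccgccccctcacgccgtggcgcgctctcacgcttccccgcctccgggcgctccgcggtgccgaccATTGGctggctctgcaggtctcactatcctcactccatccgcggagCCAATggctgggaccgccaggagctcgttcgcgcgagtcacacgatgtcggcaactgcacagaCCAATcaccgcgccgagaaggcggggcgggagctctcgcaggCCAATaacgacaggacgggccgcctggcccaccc
The sterol regulatory element letters occurred in the SREBF2 window alone, as TCACCCCAC, among 30 windows of the 24 genes that matched the promoter table by symbol. They occurred in 0.883% of the 35116 windows of all genes. The CCAAT box occurred in 21 of the 30 windows (70.0%), against 32.0% of all windows, and the letters GGGCGG of the GC box, also searched on both strands, in 28 (93.3%), against 42.6%. HMGCS1 has a second window in the table, which holds no CCAAT box, and the one printed is that with more matches. MSMO1 carried the CCAAT box at 4 places, starting 185, 139, 76 and 34 bases before its start. The exact letters of an LXR element, a direct repeat of AGGTCA with 4 bases between, on either strand, occurred in 0 of the 30 windows. They occurred in 5 of the 35116 windows of all genes (0.0142%). Letters this rare cannot show whether the 30 windows lack an LXR element, and other spellings were not searched. A match is a description of the letters and shows no binding. The absence of a match speaks only for the exact letters searched in this window, and an element spelled otherwise would be missed. ABCG1, ACAT2, FDFT1 and SQLE are not in the promoter table.

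Levels are log2 signals, on which a difference of 1 is a doubling, and levels of different probe sets are not compared. The 6 prostate epithelial markers with a probe set, among them KLK3, HOXB13 and KRT18, were above the highest unspiked bacterial control on all 12 arrays. Their summed signal was 42.4 to 43.7 on 16 h arrays, against 43.6 to 44.2 on vehicle arrays. These 6 markers did not move together. HOXB13 averaged 6.40 at 16 h, against 7.46 in vehicle, and KLK3 3.79, against 4.14. In the other direction, KRT18 averaged 11.48 at 16 h, against 11.29 in vehicle, and EPCAM 10.24, against 10.14. FOLH1 averaged 2.48, against 2.31, and KRT8 8.58, against 8.56. Of 4 leukocyte markers 0 were above that control on every array, and of 5 endothelial markers 1 was. The summed signal of 5 fibroblast markers was 17.4 to 18.2 on 16 h arrays, against 14.9 to 15.9 on vehicle arrays. It was 14.7 to 15.5 at 4 h and 15.4 to 15.7 at 6 h, 3 of the 5 markers were above the control on all arrays, and COL1A2 was below it on all. The 5 markers did not move together: COL1A1 averaged 5.82 at 16 h, against 3.77 in vehicle, and LUM 5.35, against 4.10, whereas DCN averaged 2.85 at 16 h, against 3.44, and COL3A1 2.06, against 2.43. RNA controls also differed between groups. The 3' minus 5' difference of the ACTB control was 4.09 ± 0.09 at 16 h, against 2.80 ± 0.07 in vehicle (SD, n = 3 each), while that of GAPDH was -0.43 ± 0.04, against -0.46 ± 0.02. The 18S ribosomal RNA control was 11.06 ± 0.10 at 16 h, against 9.62 ± 0.29 in vehicle, and it was 8.98 ± 0.14 at 4 h and 8.64 ± 0.19 at 6 h. The 16 h difference in ACTB and the differences in 18S from vehicle at all 3 times had exact two-sided permutation p = 0.1, the smallest that 3 against 3 arrays allow. The part of these measures in the results that follow was not tested, and in bulk RNA a change in cell number and a change in RNA per cell cannot be told apart.

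The single early call was a rise, and most late calls were falls. At 4 h 1 of 25 genes rose and 0 fell (4.00%, against 0.459% of the 12635 genes called in either direction), at 6 h 0 of 25 changed (0.0317% of all genes), and at 16 h 3 rose and 8 fell (7 calls in all without 16 h replicate 2). The 16 h calls stand beside 26.0% of all genes that rose and 16.8% that fell, and the falls made up 32.0% of the members. A call means that the limma fit gave an adjusted p below 0.05 after correction over all 12635 genes. In either direction 44.0% of the members were called at 16 h, near the 42.8% of all genes. The median change was 0.06 at 4 h, 0.01 at 6 h and -0.05 at 16 h for the 25 genes, and 0.00, 0.01 and 0.05 for all genes.

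**Figure D1:**
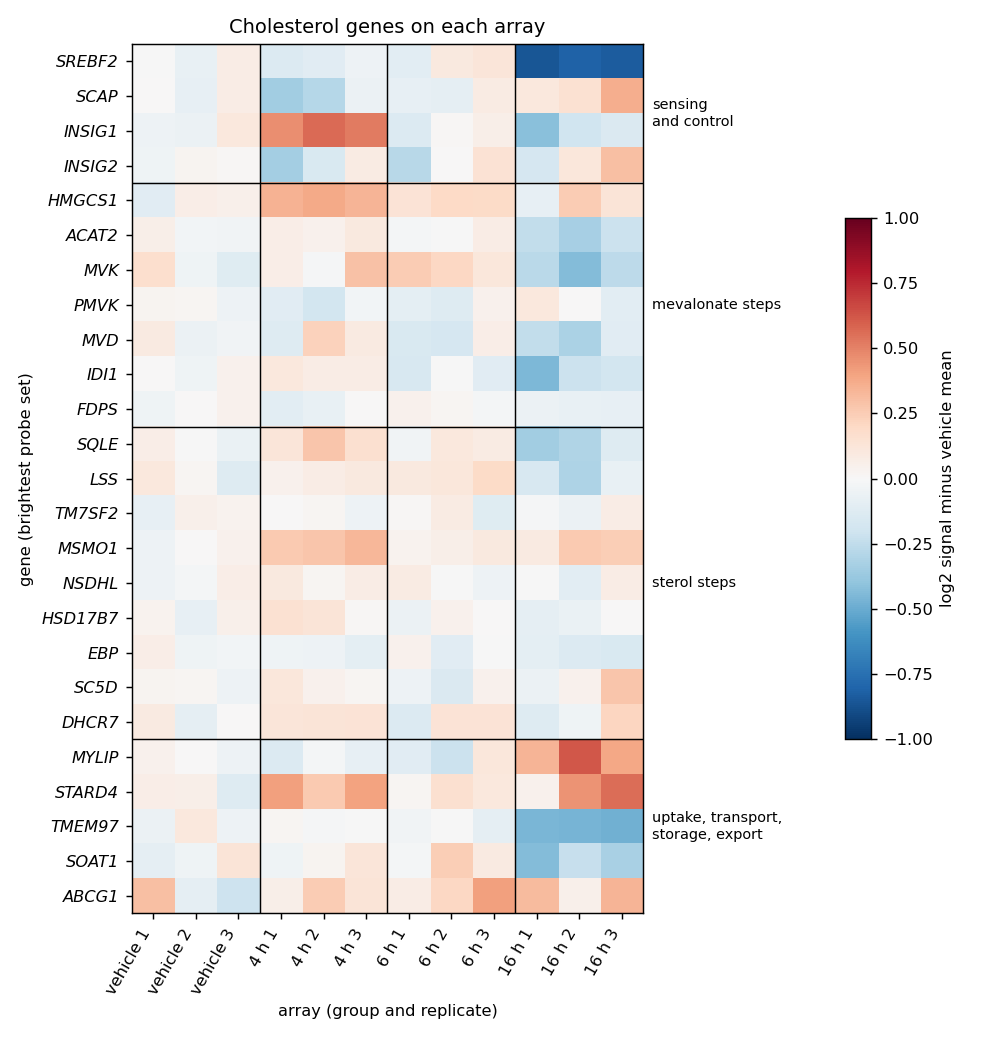
Log2 signal of 25 cholesterol genes on each of the 12 arrays, as the difference from the gene's vehicle mean (colour, red above and blue below). Columns are arrays grouped as vehicle, 4 h, 6 h and 16 h, and rows are genes grouped by role. INSIG1, HMGCS1, MSMO1 and STARD4 are red on all 3 of the 4 h arrays, and SREBF2 and TMEM97 are blue on all 3 of the 16 h arrays.

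INSIG1, which encodes the sterol-regulated retention protein of SCAP, was the 1 gene that rose at 4 h. Its signal was 9.97, 10.06 and 10.02 on the 4 h arrays, against 9.45, 9.44 and 9.61 on the vehicle arrays. All 4 h arrays stood above all vehicle arrays. The log2 change was 0.52 ± 0.09 (SE), or 1.43-fold (adjusted p = 0.0215, n = 3 per group). This call rested on every 4 h array and 2 vehicle arrays: the adjusted p was 0.0997 and 0.0783 without vehicle replicate 1 or 2, and 0.0661, 0.117 and 0.0958 without 4 h replicate 1, 2 or 3. It was also lost with each array centred on its median (0.0537) and with the mean of the gene's probe sets (0.129), and over all alternatives the adjusted p ran from 0.000174 to 0.129.

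Other genes had higher 4 h arrays without passing the test, among them the synthesis genes HMGCS1 and MSMO1 and the transport gene STARD4. HMGCS1, the synthase that makes HMG-CoA, had 9.73, 9.77 and 9.73 at 4 h, against 9.27, 9.45 and 9.44 in vehicle (log2 change 0.35 ± 0.08 SE, adjusted p = 0.127). MSMO1, the C4-methylsterol oxidase, had 10.80, 10.82 and 10.87 at 4 h, against 10.49, 10.55 and 10.59 in vehicle (0.29 ± 0.06, adjusted p = 0.0851). STARD4, a protein that carries cholesterol between membranes, had 7.41, 7.27 and 7.41 at 4 h, against 7.07, 7.06 and 6.87 in vehicle (0.36 ± 0.12, adjusted p = 0.281). In each of the 3 genes the 4 h arrays lay above the vehicle arrays. MSMO1 passed the test under 3 alternatives and HMGCS1 under 1 of them.

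Counting the 25 genes, 7 had all 4 h arrays above all vehicle arrays (against 9.21% of all genes), and 1, the sterol isomerase gene EBP, had all below (9.10% of all genes). The 7 were INSIG1, HMGCS1, MSMO1, STARD4, SQLE, IDI1 and DHCR7. SQLE encodes squalene epoxidase, IDI1 the isomerase of isopentenyl diphosphate and DHCR7 the reductase of the final step, and their log2 changes were 0.19 ± 0.08, 0.09 ± 0.08 and 0.13 ± 0.10 (SE). These are the brightest probe sets, and another went the other way for SQLE (213577_at, -0.52 ± 0.18) and for IDI1 (233014_at, -0.38 ± 0.21), neither called. The IDI1 one was dim and uneven, at 3.67, 2.83 and 2.94 in vehicle. The 4 h signal of SREBF2 was 5.29, 5.31 and 5.38, against 5.43, 5.35 and 5.51 in vehicle, with overlapping groups (-0.10 ± 0.07, adjusted p = 0.646). SCAP had 6.19, 6.25 and 6.47 at 4 h, against 6.54, 6.46 and 6.61 in vehicle, also overlapping (-0.23 ± 0.09, adjusted p = 0.400). Of the 16 synthesis genes tested, 0 passed at 4 h, and their median change was 0.07. An unadjusted p below 0.05 was found in 3 of the 16, and in 1366 of the 12635 genes. Of the 9 transport and sensing genes 1 passed, with a median of 0.00.

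At 6 h no cholesterol gene was called by limma on its brightest probe set, 0 had an unadjusted p below 0.05, and 1039 of the 12635 genes did. Over all 52 tested probe sets of these genes 0 passed (0.681% of all probe sets did) and 5 had an unadjusted p below 0.05, each with all 6 h arrays below all vehicle arrays. How many of all probe sets did so was not counted, and 6.14% of all genes had 6 h arrays wholly below vehicle. The largest of the 5 were SQLE 213577_at, at 4.97, 4.66 and 4.81 at 6 h, against 6.07, 5.26 and 5.66 in vehicle (-0.85 ± 0.18 SE, adjusted p = 0.0534), and TMEM97 212279_at (-0.58 ± 0.12, adjusted p = 0.0511). The others were 201627_s_at and 201625_s_at of INSIG1 (-0.28 and -0.41) and 215649_s_at of MVK (-0.22). INSIG1 had 9.36, 9.51 and 9.56 at 6 h, against 9.45, 9.44 and 9.61 in vehicle (-0.02 ± 0.09, SE). These 6 arrays overlapped. HMGCS1 had 9.53, 9.59 and 9.58 at 6 h, against 9.27, 9.45 and 9.44 in vehicle (0.18 ± 0.08, adjusted p = 0.624). It was the 1 gene of the 25 whose 6 h arrays all stood above vehicle (4.00%, against 8.25% of all genes). Set directly against 4 h, INSIG1 was lower at 6 h by 0.54 on the log2 scale (-0.54 ± 0.09 SE, adjusted p = 0.0484), the 1 call among the 25 genes (0.0950% of all genes were called). That call was lost without any 1 of the 6 arrays (adjusted p from 0.131 to 0.269). All 6 h arrays were below all 4 h arrays in 6 of the 25 genes (24.0%, against 9.24% of all genes).

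**Figure D2:**
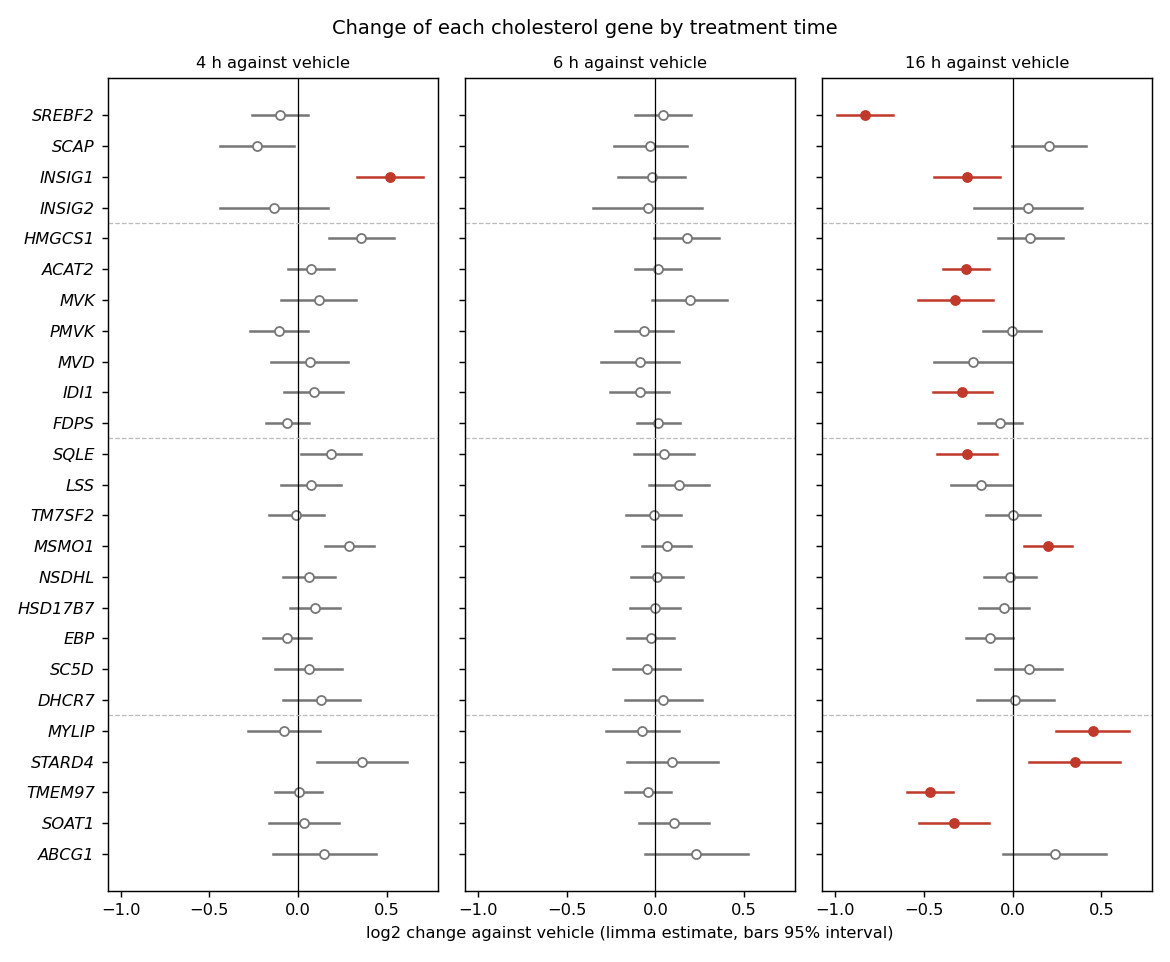
Log2 change of each of the 25 genes against vehicle at 4 h, 6 h and 16 h (x axis), with the 95% interval of the limma estimate as bars and genes by role on the y axis. Filled red points passed the test: INSIG1 at 4 h, no gene at 6 h, and 11 genes at 16 h, with SREBF2 farthest from 0 at -0.83.

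At 16 h 2 of the 4 sensing genes fell and 0 rose, where 16.8% of all genes fell and 26.0% rose. SREBF2, the gene of the master regulator SREBP2, had 4.57, 4.62 and 4.60 at 16 h, against 5.43, 5.35 and 5.51 in vehicle. The 16 h arrays lay far below the vehicle arrays, and SREBF2 fell 1.78-fold (-0.83 ± 0.07 SE, adjusted p = 4.04e-06), the largest fall of the 25 genes. INSIG1, which had risen at 4 h, had 9.08, 9.30 and 9.35 at 16 h, against 9.45, 9.44 and 9.61 in vehicle. The groups did not overlap, and INSIG1 fell 1.19-fold (-0.26 ± 0.09, adjusted p = 0.0300). It no longer passed without vehicle replicate 3 (adjusted p = 0.109), without 16 h replicate 1 (0.110) and when only these 6 arrays were fitted (0.0707).

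SCAP and INSIG2 did not pass at 16 h, although SCAP was called in an alternative fit that added the replicate number as a block. SCAP, the sterol-sensing escort, had 6.64, 6.68 and 6.90 at 16 h, against 6.54, 6.46 and 6.61 in vehicle (0.21 ± 0.09 SE, adjusted p = 0.101). Its 16 h arrays all stood above vehicle. INSIG2, the second retention protein, had 4.49, 4.78 and 4.96 at 16 h, against 4.62, 4.69 and 4.67 in vehicle. Its arrays overlapped.

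Among the 7 genes of the mevalonate steps, 3 fell and 0 rose at 16 h (against 16.8% of all genes that fell and 26.0% that rose), and the median change was -0.22, against 0.05 for all genes. ACAT2, the thiolase that condenses acetyl-CoA, had 9.13, 9.03 and 9.16 at 16 h, against 9.43, 9.34 and 9.34 in vehicle (-0.26 ± 0.06 SE, 1.20-fold, adjusted p = 0.0037). MVK, mevalonate kinase, had 6.13, 5.97 and 6.14 at 16 h, against 6.57, 6.36 and 6.29 in vehicle (-0.32 ± 0.10, 1.25-fold, adjusted p = 0.0180). IDI1 had 9.46, 9.69 and 9.72 at 16 h, against 9.91, 9.86 and 9.94 in vehicle (-0.28 ± 0.08, 1.22-fold, adjusted p = 0.0100). In all 3 genes every 16 h array was below every vehicle array. MVK no longer passed without vehicle replicate 1 (adjusted p = 0.0762) or 16 h replicate 2 (0.0732). The IDI1 value comes from a probe set of the _x_at class, which can bind related transcripts. The IDI1 call was lost where other classes were preferred (-0.06, adjusted p = 0.855) or all its probe sets averaged (-0.20, adjusted p = 0.0690). The probe set then preferred, 233014_at, was dim and uneven, at 3.67, 2.83 and 2.94 in vehicle.

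The other 4 mevalonate genes did not pass. HMGCS1 had 9.30, 9.64 and 9.52 at 16 h, against 9.27, 9.45 and 9.44 in vehicle, with overlap (0.10 ± 0.08 SE). MVD, the diphosphomevalonate decarboxylase, was dim, at 2.83, 2.76 and 2.96, against 3.16, 3.02 and 3.04 in vehicle. Its groups did not overlap (-0.22 ± 0.10, adjusted p = 0.0917). PMVK, phosphomevalonate kinase, changed by 0.00 ± 0.07 and FDPS, farnesyl diphosphate synthase, by -0.07 ± 0.06 (SE), with FDPS arrays at 16 h just below those of vehicle.

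Among the 9 tested genes of the sterol steps, 1 rose and 1 fell at 16 h, with a median change of -0.01. Each was 11.1%, beside 26.0% of all genes that rose and 16.8% that fell. MSMO1 had 10.64, 10.80 and 10.79 at 16 h, against 10.49, 10.55 and 10.59 in vehicle (0.20 ± 0.06 SE, 1.15-fold, adjusted p = 0.0224). SQLE had 8.45, 8.50 and 8.67 at 16 h, against 8.86, 8.80 and 8.73 in vehicle (-0.26 ± 0.08, 1.20-fold, adjusted p = 0.0174). Neither gene's arrays overlapped with vehicle. SQLE no longer passed without vehicle replicate 1 (adjusted p = 0.0625), 16 h replicate 1 (0.0602) or 16 h replicate 2 (0.0578). The MSMO1 call was lost without vehicle replicate 1 or 2 (0.0732 and 0.0503), without 16 h replicate 2 or 3 (0.0811 and 0.0692), under median centring (0.0597) and with only the 6 arrays (0.0828).

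LSS, which cyclises squalene epoxide to lanosterol, had 8.85, 8.70 and 8.93 at 16 h, against 9.11, 9.03 and 8.88 in vehicle, with overlap (-0.18 ± 0.08 SE, adjusted p = 0.0806). EBP had 9.28, 9.25 and 9.23, against 9.45, 9.34 and 9.35 in vehicle, without overlap (-0.13 ± 0.06, adjusted p = 0.111). TM7SF2 (a sterol C14 reductase), NSDHL (a C4 decarboxylating dehydrogenase), HSD17B7 (a 3-ketosteroid reductase), SC5D (the C5 desaturase) and DHCR7 did not pass. Their 16 h changes ran from -0.05 for HSD17B7 to 0.09 for SC5D, and the arrays of these 5 genes overlapped with vehicle.

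The transport and storage genes moved in both directions at 16 h, 2 of 5 tested rising and 2 falling, where 26.0% of all genes rose and 16.8% fell. MYLIP, the LXR-induced ubiquitin ligase, had 5.45, 5.73 and 5.49 at 16 h, against 5.15, 5.11 and 5.05 in vehicle. No array overlapped, and MYLIP rose 1.37-fold (0.45 ± 0.09 SE, adjusted p = 0.0023). However, the tested probe set outside the _s_at and _x_at classes, 228097_at, gave 0.13 (adjusted p = 0.530). That probe set was dim, averaging 2.36 at 16 h and 2.23 in vehicle, near the filter at 2.11. STARD4 had 7.04, 7.46 and 7.56 at 16 h, against 7.07, 7.06 and 6.87 in vehicle, so 16 h replicate 1 lay within the vehicle range. It rose 1.27-fold (0.35 ± 0.12, adjusted p = 0.0303), a call lost without vehicle replicate 3 (0.106), 16 h replicate 2 (0.104) or 16 h replicate 3 (0.125), and with only the 6 arrays (0.0772).

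TMEM97, the sigma-2 receptor of the endoplasmic reticulum, which affects cholesterol trafficking, had 8.92, 8.92 and 8.90 at 16 h, against 9.32, 9.48 and 9.33 in vehicle. It fell 1.38-fold (-0.47 ± 0.06 SE, adjusted p = 8.49e-05) with no overlap. SOAT1, which esterifies cholesterol for storage, had 8.30, 8.50 and 8.40 at 16 h, against 8.64, 8.69 and 8.86 in vehicle. It fell 1.26-fold by its brightest probe set (-0.33 ± 0.09, adjusted p = 0.0110), again without overlap, and the mean of its probe sets gave the opposite direction (0.14, adjusted p = 0.180). The falls of SREBF2, TMEM97 and ACAT2 passed the test under every alternative that was run.

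The exporter genes were close to the floor of detection. ABCG1, just above the filter, had 2.29, 2.02 and 2.30 at 16 h, against 2.26, 1.88 and 1.76 in vehicle, with overlap (0.24 ± 0.13 SE, adjusted p = 0.174). It passed without vehicle replicate 1 (0.39, adjusted p = 0.0246), and it was above the highest unspiked control on 9 of the 12 arrays. ABCA1 had 2.03, 1.76 and 1.83 at 16 h, against 1.99, 2.45 and 1.98 in vehicle, and averaged 2.00 over the 12 arrays. The highest unspiked control averaged 1.94 on 16 h arrays and 2.14 on vehicle arrays.

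**Figure D3:**
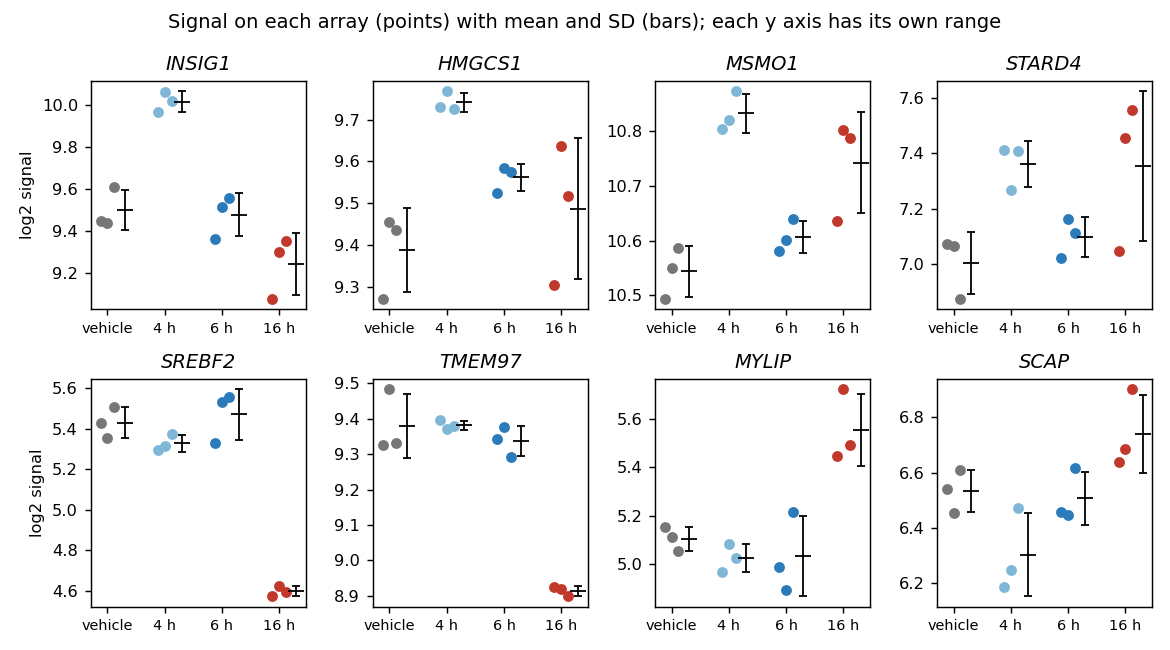
Log2 signal of 8 genes on each array (points), with the mean and SD of the 3 arrays beside them, for vehicle, 4 h, 6 h and 16 h. Each panel has its own y range. INSIG1 is highest at 4 h (9.97 to 10.06), SREBF2 and TMEM97 are lowest at 16 h, and MYLIP is highest at 16 h (5.45 to 5.73).

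Synthesis was set against transport and sensing by counts. At 16 h 1 of the 16 synthesis genes rose and 4 fell (6.25% and 25.0%), with a median change of -0.06 and a range of -0.32 to 0.20. Of the 9 transport and sensing genes 2 rose and 4 fell (22.2% and 44.4%), with a median of 0.08 and a range of -0.83 to 0.45. Of all genes 26.0% rose and 16.8% fell. The share of rises was smaller among synthesis genes and near that of all genes among transport and sensing genes. Both classes had larger shares of falls, each on only 4 genes, and no difference between the classes was tested. All 16 h arrays lay below all vehicle arrays in 11 of the 25 genes (44.0%, against 20.9% of all genes) and above them in 3 (against 30.5%).

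The times were also tested directly against each other, in comparisons that share arrays. Against 4 h, 2 of the 25 genes were higher at 16 h and 11 lower (against 24.8% and 16.1% of all genes). SCAP was higher by 0.44 ± 0.09 (SE, adjusted p = 0.0032), and INSIG1 was lower by 0.77 on the log2 scale, with an adjusted p of 3.29e-05. The 7 synthesis genes that were lower than at 4 h were SQLE, MVK, IDI1, ACAT2, MVD, HMGCS1 and LSS, with changes of -0.44 to -0.25, and 0 of the 16 were higher. Against 6 h, MYLIP was the 1 gene higher at 16 h, and 8 were lower (4.00% and 32.0%, against 25.1% and 17.6% of all genes). These 8 included SREBF2 at -0.87 ± 0.07 and MVK at -0.52 ± 0.10 (SE).

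Many of these genes have several probe sets, and at 16 h they did not all move alike. In a separate fit over 27306 probe sets, 6 of the 52 tested member probe sets rose and 19 fell at 16 h (23.0% and 16.7% of all probe sets). Of the 13 genes with more than 1 tested probe set, 7 had at least 2 calls in 1 direction and none in the other, 1 had a single call, 3 had no call, and 2 had calls in both directions. EBP and SOAT1 were the 2 with both.

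For SOAT1, probe set 228479_at fell by 0.33 on the log2 scale (adjusted p = 0.0151), while 221561_at rose. The second had 7.46, 7.72 and 7.62 at 16 h, against 6.99, 6.98 and 7.27 in vehicle (0.52 ± 0.12 SE, adjusted p = 0.0052). Neither probe set's arrays overlapped with vehicle. For EBP, 213789_at had 3.81, 3.75 and 4.18 at 16 h, against 3.39, 3.24 and 3.28 in vehicle (0.61 ± 0.11, adjusted p = 0.0013), and 213787_s_at fell by 0.38 (adjusted p = 0.0088). The EBP probe set with the highest signal was not called. For DHCR7, 201790_s_at fell by 0.60 (adjusted p = 0.0093), while its brightest probe set changed by 0.02.

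In other genes the size differed more than the direction. TMEM97 had 5.97, 5.66 and 5.86 by 212279_at at 16 h, against 7.39, 6.99 and 7.13 in vehicle, a fall of 2.53-fold, against 1.38-fold by the brightest. SQLE had 4.57, 4.29 and 4.44 by 213577_at at 16 h, against 6.07, 5.26 and 5.66 in vehicle, a fall of 2.35-fold. In both genes these arrays did not overlap. The 3 probe sets of INSIG1 changed by -0.26, -0.57 and -0.84, all called. MVK fell 1.25-fold, 1.99-fold and 1.15-fold by its 3 probe sets. SREBF2 changed by -0.83, -0.56 and -0.03, the last not called. MYLIP rose 2.01-fold by 223130_s_at, with 5.54, 5.85 and 5.65 at 16 h, against 4.60, 4.58 and 4.86 in vehicle. At 4 h the INSIG1 probe sets changed by 0.52, 0.39 and 0.00, of which the first passed (adjusted p = 0.0388).

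**Figure D4:**
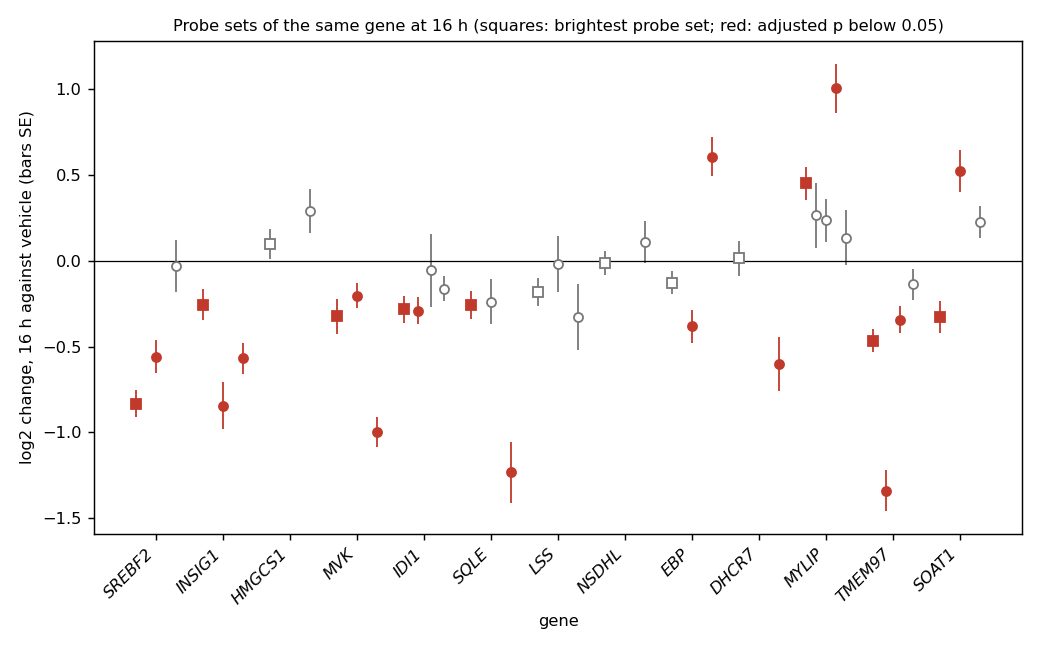
Log2 change at 16 h against vehicle (y axis, bars SE) for every tested probe set of the 13 genes with more than 1 (x axis). Squares are the brightest probe set of a gene, and red marks an adjusted p below 0.05. SREBF2, INSIG1, MVK and TMEM97 have red points only below 0, MYLIP only above 0, and EBP and SOAT1 on both sides.

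Of a list of 41 other genes of the sterol pathway, 29 were tested. At 4 h and at 6 h 0 of the 29 passed and 0 had an unadjusted p below 0.05. At 16 h 9 rose and 3 fell (31.0% and 10.3%, near the 26.0% and 16.8% of all genes), with a median change of 0.07, against 0.05 for all genes. VLDLR, which encodes a receptor for triglyceride-rich lipoproteins, had 4.28, 4.66 and 4.91 at 16 h, against 2.93, 3.12 and 3.32 in vehicle, and rose 2.81-fold (1.49 ± 0.15 SE, adjusted p = 1.09e-05). NPC1, which carries cholesterol out of lysosomes, rose 1.46-fold, NCEH1, a cholesteryl ester hydrolase, 1.49-fold, and DHDDS, which draws isoprenoids into dolichol, 1.54-fold. The 3 that fell were SREBF1, the paralogue of SREBF2 that drives fatty acid genes (2.84-fold), NR1H3, which encodes LXR alpha (log2 change -0.59 ± 0.13 SE, adjusted p = 0.0027), and PDSS1, a subunit of the synthase of the ubiquinone side chain (1.21-fold). NR1H3 had 5.32, 5.49 and 5.77 at 16 h, against 6.13, 6.11 and 6.10 in vehicle, without overlap.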

How the data were processed

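Total RNA from 12 samples of 22Rv1 was hybridised to expression arrays after amplification from the 3' end, per the labels' protocols. The authors deposited log2 values per probe set, and the submitters' processing notes name GCRMA, with no version, which corrects background, normalises between arrays and summarises probes. Such normalisation hides a shift common to most genes. The genome build is not given in the sources used here. The log2 values ran from -0.49 to 13.77, with array medians of 2.10 to 2.15. No 2 arrays held identical values.

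Symbols came from the platform annotation, updated through Entrez identifiers against RefSeq. Of 54675 probe sets, 41097 had 1 symbol, 1801 several and 11777 none listed. Each gene was represented by its brightest probe set and tested if its mean reached 2.11, the median over probe sets. All arrays were fitted in limma 3.58.1 under R 4.3.3 (lmFit, eBayes, 8 residual and 3.69 prior degrees of freedom) with group as factor, two-sided, with Benjamini-Hochberg adjustment over all genes tested. The fit was tested on simulated data. Members and lists were chosen with earlier results of these data known. All 28 members are named, and of the other sterol genes at most the 4 largest called changes in each direction at 16 h. Replicate numbers were not taken to pair arrays, since only 5 of 18 same-numbered pairs correlated above 0.1 in their deviations (range -0.00 to 0.24), although 9 of 12 arrays correlated best with an array of their own number. Alternatives were other scalings, filters, probe set choices and model settings, a replicate block, and each array left out.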

Additional observations from a re-analysis of the deposited data

Results flagged for a closer look

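Changes against vehicle differed between treatment times in 23 tests of the difference itself, each from the limma fit with adjusted p below 0.05 over all genes. They share arrays, are not independent and belong to the comparisons between times given above. Of the 25 genes 52.0% were called between 16 h and 4 h, against 40.9% of all genes. Between 16 h and 6 h 36.0% were called, against 42.7% of all genes, and between 6 h and 4 h 4.00%, against 0.0950%. Between 6 h and 4 h the difference was -0.54 (log2) for INSIG1.

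Between 16 h and 4 h, SCAP differed by 0.44 and MYLIP by 0.53. INSIG1 differed by -0.77 and SREBF2 by -0.73, followed by TMEM97 at -0.47, SQLE at -0.44, MVK at -0.44, IDI1 at -0.37, SOAT1 at -0.36, ACAT2 at -0.33, MVD at -0.29, HMGCS1 at -0.25 and LSS at -0.25. Other probe set choices turned the direction for MYLIP (-0.0391), IDI1 (0.33) and SOAT1 (0.0136). The MYLIP and IDI1 probe sets so chosen were dim, averaging 2.40 and 2.76 at 4 h. The HMGCS1 call was lost on leaving out any of 5 arrays (adjusted p from 0.0516 to 0.102), the MVD call on any of 4 (0.0804 to 0.149) and the LSS call on any of 3 (0.0567 to 0.0896).

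Between 16 h and 6 h, MYLIP differed by 0.52 and SREBF2 by -0.87. MVK differed by -0.52, SOAT1 by -0.43, TMEM97 by -0.42, LSS by -0.32, SQLE by -0.31, ACAT2 by -0.28 and INSIG1 by -0.24. SOAT1 turned to 0.13 with the mean of its probe sets. The INSIG1 call was lost without 6 h replicate 2 or 3 or 16 h replicate 1 or 2 (adjusted p from 0.0589 to 0.154). RNA controls differed at 16 h, as given above, and their part in these differences was not tested.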

How the results depend on the processing

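The count of cholesterol genes changed at 4 h was 1, and was 0 with median centring, 2 with the 75th percentile filter, 0 with the mean of probe sets, 3 with a trended and robust prior and 2 with array weights. It ran from 0 to 1 with each array left out. The count of 1 between 6 h and 4 h became 0 with median centring, no filter, the mean of probe sets, a preference against the _s_at and _x_at classes, or only the 6 arrays compared, became 2 with the trended and robust prior, and was 0 to 0 with each array left out. At 6 h the count was 0 under every alternative run. The 16 h count of 11 ran from 7 (without 16 h replicate 2) to 10 with an array left out and from 8 to 13 otherwise. With an array left out the counts were 10 to 12 between 16 h and 4 h (13 with all arrays), 8 to 11 between 16 h and 6 h (9), and 19 to 24 for probe sets at 16 h (25). The cause was not tested, except that fewer arrays enter the left-out fits. With the replicate block the counts were 1 at 4 h, 0 at 6 h, 12 at 16 h (SCAP was called, adjusted p = 0.0190), 1 between 6 h and 4 h, 13 between 16 h and 4 h, and 10 between 16 h and 6 h; 9 of 12 arrays correlated best with an array of their own number, a hint from the data and not the design. Directions turned for DHCR7 at 16 h with the mean of probe sets (-0.29), for SOAT1 with that mean (0.14 at 16 h, 0.0136 against 4 h and 0.13 against 6 h), and between 16 h and 4 h with other probe set classes for IDI1 (0.33) and MYLIP (-0.0391). These IDI1 and MYLIP values came from dim probe sets. Of all values recomputed, 695 kept direction and side of the threshold or stayed within 1.5 times for counts, 67 lost a call, 27 gained one and 6 turned. Signals near the unspiked controls, ABCA1 and ABCG1 here, limit any statement on export.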
